A study of Mus musculus with 2 samples.

Results

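The circadian clock genes of skeletal muscle were examined in single-nucleus RNA sequencing (snRNA-seq) of mouse tibialis anterior (TA) muscle. They were taken as the rows of both count matrices whose symbol was one of 10 members, which made 10 of 32285 genes: Dbp, Tef, Ciart, Per1, Per2, Per3, Nr1d1, Nr1d2, Arntl and Clock. The study compared the M-Bcl6 KO muscle, from Myf6-Cre+ Bcl6 fl/fl mice, with the M-Bcl6 WT muscle of Myf6-Cre+ Bcl6 wt/wt mice, so that both carried the Cre transgene, which the Myf6 promoter drives in skeletal muscle cells. All mice were males aged 6 weeks on the C57BL/6 background, and the right and left TA muscles of 2 mice were pooled into each library. There was therefore 1 library per genotype, no test between genotypes was possible, and every interval given here is a 95% interval that covers counting error alone and not the spread between mice. The mice lived under a standard light and dark cycle. The hour at which the muscles were collected is not given in the sources used here, and a difference in that hour cannot be told apart from genotype.

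The circadian clock is a loop of transcription and feedback that runs in nearly every cell. CLOCK and BMAL1, the protein of Arntl, pair and bind E-boxes, from which they switch on the period genes Per1, Per2 and Per3, the nuclear receptors Nr1d1 and Nr1d2 (REV-ERB alpha and beta), Ciart and the output factors Dbp and Tef. The period proteins then hold back CLOCK and BMAL1, the REV-ERB receptors repress Arntl through ROR elements, and DBP and TEF, 2 factors of the PAR bZIP family, bind D-boxes in further genes. In the daily cycle, transcripts of the E-box targets and Arntl peak at opposite times of day. In skeletal muscle the clock is known for setting the daily rhythm of genes of glucose and lipid use.

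The members lie on 8 chromosomes of mm10, by the GENCODE M21 annotation, and their identifiers and positions follow. Dbp (ENSMUSG00000059824) spans chr7:45705088-45710203 on the plus strand and Tef (ENSMUSG00000022389) spans chr15:81802421-81826863 on the plus strand. Ciart (ENSMUSG00000038550) spans chr3:95878503-95882251 on the minus strand. Per1 (ENSMUSG00000020893) spans chr11:69095217-69109960 on the plus strand, Per2 (ENSMUSG00000055866) chr1:91415982-91459324 on the minus strand and Per3 (ENSMUSG00000028957) chr4:151003652-151044665 on the minus strand. Nr1d1 (ENSMUSG00000020889) spans chr11:98767932-98775333 and Nr1d2 (ENSMUSG00000021775) chr14:18204054-18239127, both on the minus strand. Arntl (ENSMUSG00000055116) spans chr7:113207465-113314126 on the plus strand and Clock (ENSMUSG00000029238) chr5:76209868-76304792 on the minus strand. Some of these genes overlap others. Per3 lies whole within the annotated span of Camta1 on the same strand, so the split of reads between that pair is uncertain. Ciart lies whole within the span of the antisense gene C920021L13Rik, on the opposite strand, and the effect of that overlap was not tested. Nr1d1 shares 1075 bases with Thra and Dbp shares 737 bases with Sphk2, each on the opposite strand.

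Promoter windows of RefSeq (GRCm38.p6), from 250 bases before to 50 bases after a transcript start, were given for 9 of the 10 members in 14 windows. Each was searched on both strands for the E-box CACGTG, for the D-box as TTATGTAA or TTACGTAA, and for the ROR half-site AGGTCA. These were held by 7.15%, 1.06% and 16.3% of all 32851 windows. The windows of 5 members that differ between the libraries in myonuclei are printed here, with each match in capitals and everything else in lower case. Ciart (chr3:95882179-95882478, minus strand) held 3 E-boxes, and Tef (chr15:81802423-81802722, plus strand) held 1. Per3 (chr4:151044616-151044915, minus strand) held 2 D-boxes, Arntl (chr7:113207261-113207560, plus strand) held 1 ROR half-site, and Dbp (chr7:45704997-45705296, plus strand) held none of the motifs in its window.
Ciart: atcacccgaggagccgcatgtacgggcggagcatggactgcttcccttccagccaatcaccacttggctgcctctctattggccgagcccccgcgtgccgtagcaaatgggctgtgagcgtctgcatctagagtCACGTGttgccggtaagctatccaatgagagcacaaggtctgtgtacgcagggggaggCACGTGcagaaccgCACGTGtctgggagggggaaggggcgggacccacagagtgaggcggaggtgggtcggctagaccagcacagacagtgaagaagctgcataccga
Tef: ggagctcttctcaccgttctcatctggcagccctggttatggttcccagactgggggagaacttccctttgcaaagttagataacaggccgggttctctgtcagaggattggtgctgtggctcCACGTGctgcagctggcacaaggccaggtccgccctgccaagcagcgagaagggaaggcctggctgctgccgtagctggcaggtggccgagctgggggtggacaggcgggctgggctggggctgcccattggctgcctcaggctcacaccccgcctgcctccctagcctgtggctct
Per3: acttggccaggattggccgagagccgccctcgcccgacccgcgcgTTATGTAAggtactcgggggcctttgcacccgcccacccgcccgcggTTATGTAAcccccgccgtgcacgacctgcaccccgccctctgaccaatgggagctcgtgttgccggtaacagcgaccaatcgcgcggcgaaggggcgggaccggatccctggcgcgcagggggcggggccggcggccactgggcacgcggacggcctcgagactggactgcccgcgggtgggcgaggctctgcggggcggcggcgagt
Arntl: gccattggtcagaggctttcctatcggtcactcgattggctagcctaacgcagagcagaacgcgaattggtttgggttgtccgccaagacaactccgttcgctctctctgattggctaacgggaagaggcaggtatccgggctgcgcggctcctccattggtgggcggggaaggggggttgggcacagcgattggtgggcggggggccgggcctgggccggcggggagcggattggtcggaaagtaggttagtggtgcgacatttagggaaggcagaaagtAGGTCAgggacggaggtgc
Dbp: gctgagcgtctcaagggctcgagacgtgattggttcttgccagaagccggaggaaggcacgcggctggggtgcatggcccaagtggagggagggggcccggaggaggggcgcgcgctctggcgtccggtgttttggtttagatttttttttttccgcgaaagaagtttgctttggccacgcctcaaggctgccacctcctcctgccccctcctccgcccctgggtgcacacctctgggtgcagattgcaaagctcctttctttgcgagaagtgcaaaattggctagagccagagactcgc
Among the windows not printed, the second start of Tef held 1 E-box, the first start of Per1 held 1 E-box and 1 ROR half-site, and Nr1d2 and the third start of Clock held 1 ROR half-site each. The first start of Arntl held none of the motifs, so its printed window is the one with a match. Nr1d1, the second start of Per1 and the other starts of Clock also held none. A match is a run of letters and no measure of binding. Per2 had no window in the table.

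The libraries labelled WT and KO held 3798 and 4096 barcodes with 11974138 and 12026013 UMIs (unique molecular identifiers, each standing for 1 captured RNA molecule). After quality control 3674 and 3944 nuclei remained. Of 18 clusters, 7 muscle clusters were pooled as myonuclei (2414 in the WT-labelled library and 3089 in the KO-labelled library). Their summed level of 10 myonuclear markers was at least 53195 UMIs per 1000000 (CPM), against at most 13721 CPM in any other cluster. Myonuclei were split into fibre types by the myosin heavy chain gene with the most UMIs, Myh4 for IIb (704 and 611 nuclei), Myh1 for IIx (1161 and 1176) and Myh2 for IIa (234 and 482), with 2 and 19 nuclei for Myh7 and 313 and 801 with no UMI or a tie. The 8 named classes of other cells held 1226 and 827 nuclei. The UMI count of the targeted gene went against the labels. The paper itself reports, by quantitative PCR in older mice, efficient loss of Bcl6 mRNA in TA and other muscles of KO mice. Bcl6 stood at 167.5 CPM in myonuclei of the WT-labelled library (1485 UMIs) and at 501.5 CPM in the KO-labelled library (4843 UMIs), a log2 ratio of 1.58 (1.498 to 1.667). The floxed part spans exons 7 to 9, and UMIs summed over a gene do not show whether those exons were present, so this count does not check the deletion, and the libraries are called by their labels throughout.

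Between the libraries, transcripts of Dbp, Tef, Ciart and Per3 were lower and those of Arntl and Clock higher in myonuclei labelled KO. The log2 ratios below are of CPM in the KO-labelled library over the WT-labelled one, and a relative ratio has the median of all genes with at least 200 UMIs subtracted, which was -0.15 over 6989 genes. Of the 10 members, 9 reached that number of UMIs. Of these, 3 (Dbp, Ciart and Per3) were at least 2-fold lower relative to the median, where 1.85% of all genes were, and 0 were at least 2-fold higher, where 3.95% of all genes were. The interval of 8 of the 9 excluded the median, which held for 53.9% of all genes, so that count alone does not set the members apart. The median relative ratio of the 9 was -0.26.

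Among the output factors, Dbp differed most of all members. It had 202 UMIs in the WT-labelled library and 54 in the KO-labelled library, or 22.8 CPM (19.8 to 26.2) and 5.59 CPM (4.20 to 7.30). That is a 4.08-fold difference, and a relative log2 ratio of -1.88 (-2.34 to -1.44), the 20th lowest of 6989 genes. Tef, its close relative, stood at 339 CPM (327 to 352) and 181 CPM (172 to 189), a 1.88-fold lower level with a relative ratio of -0.76 (-0.85 to -0.68). The intervals of the 2 libraries did not overlap for either gene. Hlf, the remaining PAR bZIP gene, had 56 and 34 UMIs, too few for the count above, with a relative ratio of -0.70 (-1.36 to -0.06).

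Among the repressors, Ciart, which holds back CLOCK and BMAL1, stood at 20.3 CPM (17.4 to 23.5) in the WT-labelled library and 6.01 CPM (4.56 to 7.76) in the KO-labelled library. Its relative ratio was -1.61 (-2.06 to -1.18), the 35th lowest. The antisense gene that covers it had 445 and 440 UMIs over all barcodes before quality control. That sum is over all cell types, so it does not show the level of the antisense gene in myonuclei. Per3 stood at 125 CPM (118 to 133) and 51.5 CPM (47.0 to 56.2), a relative ratio of -1.13 (-1.29 to -0.98). Camta1, which covers Per3 on the same strand, had 2741 and 5090 UMIs over all barcodes before quality control. The part of this overlap in the Per3 value was not tested. The other period genes stood apart less. Per1 had 97.4 CPM (91.0 to 104) and 73.6 CPM (68.3 to 79.2), a relative ratio of -0.26 (-0.40 to -0.11). Per2 had 114 and 67 UMIs, or 12.9 CPM (10.6 to 15.5) and 6.94 CPM (5.38 to 8.81), a relative ratio of -0.74 (-1.20 to -0.30), with 181 UMIs in all and so outside the count above.

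The REV-ERB receptors stood near the other genes in pooled myonuclei. Nr1d1 had 30.01 CPM (26.5 to 33.8) in the WT-labelled library and 25.6 CPM (22.5 to 29.0) in the KO-labelled library, and its relative ratio of -0.08 had an interval on both sides of 0 (-0.34 to 0.17). Nr1d2 had 377 CPM (365 to 390) and 302 CPM (291 to 313), with a relative ratio of -0.18 (-0.25 to -0.10). With the fibre types weighted equally, the relative ratio of Nr1d1 was -0.33.

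The activators ran the other way. Arntl stood at 44.5 CPM (40.2 to 49.1) in the WT-labelled library, from 394 UMIs, and at 77.5 CPM (72.0 to 83.2) in the KO-labelled library, from 748 UMIs. Its relative ratio of 0.95 (0.77 to 1.13) was the 312th highest. Clock stood at 73.2 CPM (67.7 to 79.1) and 114 CPM (107 to 120), with a relative ratio of 0.78 (0.64 to 0.92). For both genes the level was higher in the KO-labelled library and the intervals of the libraries did not overlap.

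**Figure D1:**
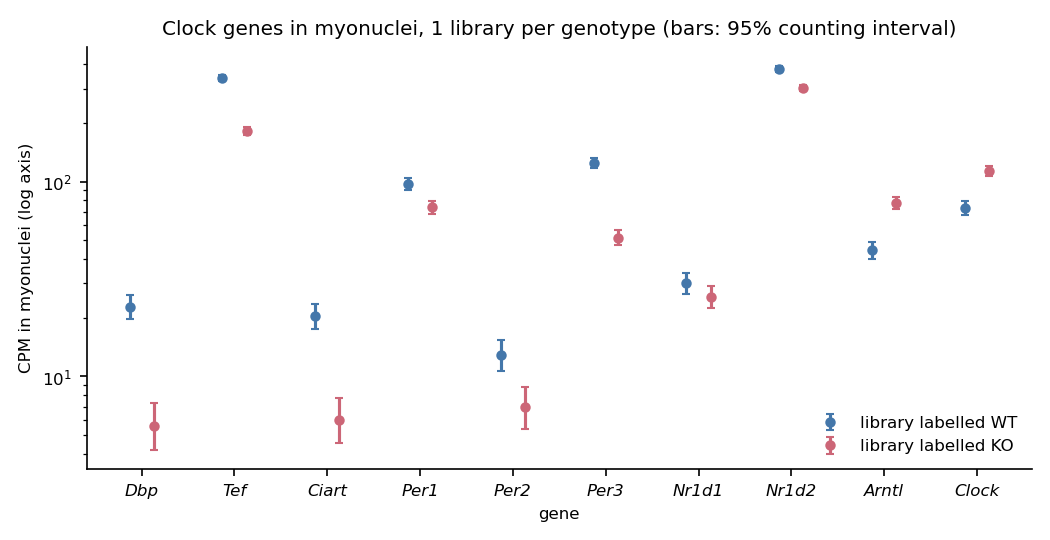
Level of each clock gene in myonuclei of the libraries labelled WT and KO, in CPM on a log axis. Points are 1 library each and bars are 95% counting intervals. Dbp is at 22.8 and 5.59 CPM and Arntl at 44.5 and 77.5 CPM in the libraries labelled WT and KO.

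**Figure D2:**
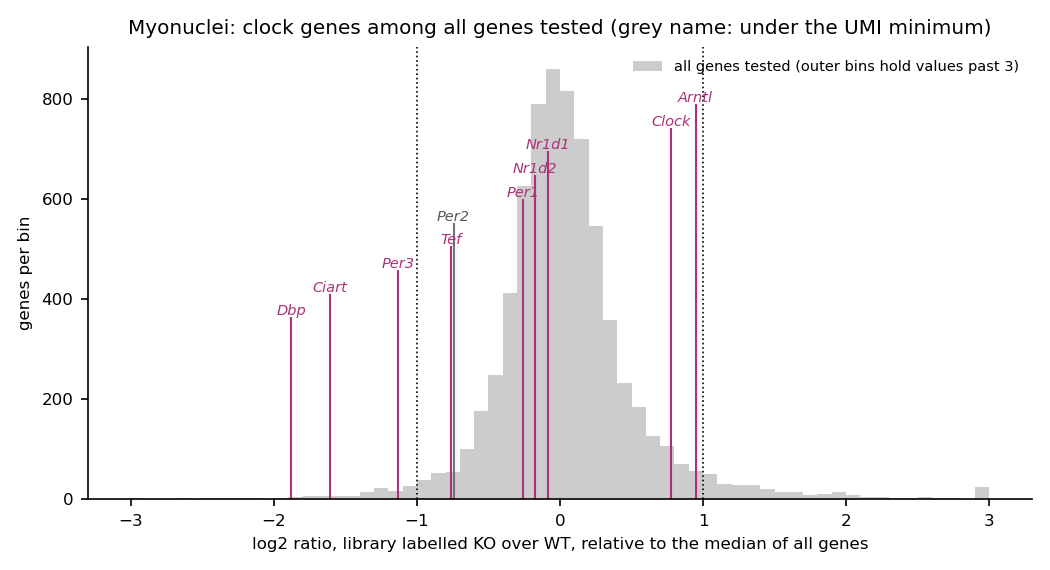
Relative log2 ratio in myonuclei over all 6989 genes with at least 200 UMIs (grey bars, genes per bin) with the 10 clock genes marked by lines whose height has no meaning. Dotted lines mark a 2-fold difference, past which lie Dbp, Ciart and Per3 on the lower side and no clock gene on the higher side, while Per2 (grey) had under 200 UMIs.

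Single nuclei were also counted at equal depth. The UMIs of every nucleus were drawn down to 1000, leaving out 27 and 75 myonuclei with fewer, and the share of nuclei with at least 1 UMI of a gene was taken. Dbp was seen in 2.39% of myonuclei labelled WT (1.81 to 3.08) and 0.630% labelled KO (0.380 to 0.983), and Arntl in 4.36% (3.57 to 5.26) and 7.66% (6.74 to 8.67). Unthinned, the shares were 7.62% and 1.72% for Dbp and 13.4% and 18.2% for Arntl. Tef was seen in 27.9% and 16.5%, Per3 in 11.2% and 5.18% and Nr1d2 in 29.9% and 25.7% of thinned myonuclei. Most members thus differed in the same direction by share as by level. Of the 10 members, 7 had intervals that did not overlap between the libraries, and Per1, Per2 and Nr1d1 had intervals that did. The share of all genes with such intervals was not computed, so that count alone does not set the members apart. For comparison, in FAP-like nuclei, the fibro-adipogenic cells between the fibres, thinned Dbp was seen in 0 of 399 nuclei labelled WT, which allows a share of up to 0.752% by the limit of 3 counts and up to 0.920% by the Clopper-Pearson interval, and in 1.49% of 268 labelled KO (0.408 to 3.78). In endothelial-like nuclei it was seen in 1.96% of 153 labelled WT (0.406 to 5.62) and 0.885% of 113 labelled KO (0.0224 to 4.83). The Dbp share of myonuclei labelled KO was therefore not above that of other cells, and that of myonuclei labelled WT was above the FAP-like share alone. Before thinning the median depth was 3127.5 and 2714 UMIs in myonuclei, 1960 and 1747 in FAP-like and 1400 and 1747.5 in endothelial-like nuclei.

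Within myonuclei the members were compared cluster by cluster. In the 5 myonuclear clusters with at least 100 nuclei in each library, Dbp, Tef, Ciart, Per2 and Per3 were below the median of all genes in 5 of 5 and Arntl was above it in 5 of 5. Clock was above it in 4 of 5. Nr1d2 was below it in 4 of 5, and Per1 and Nr1d1 were below it in 3 of 5 and above it in 2. The share of all genes with such agreement was not computed, so these counts alone do not set the members apart. Some rest on few UMIs. Per2 had 1 or 2 UMIs labelled KO in clusters 1, 2, 3 and 5, and was at -0.05 in cluster 0. Ciart had 1 UMI labelled KO in cluster 3, and Dbp had 2 each in clusters 2 and 3. The sizes were uneven. In cluster 1, whose leading genes include Myh7 and Myh2, Arntl had a relative ratio of 1.60 (1.27 to 1.93), Clock 1.20 (0.95 to 1.45) and Per3 -2.46 (-2.92 to -2.02). Arntl was between 0.42 and 0.57 in the other 4, with intervals that held 0 in clusters 0 (-0.08 to 0.92) and 5 (-0.28 to 1.17). Clock was at 0.18 (-0.13 to 0.48) in cluster 0 and -0.02 (-0.53 to 0.51) in cluster 5, and Per3 at -0.36 (-0.73 to 0.0042) in cluster 2. Tef was more even, from -1.07 to -0.40. The clusters had been built without the clock genes and without the genes that differed 2-fold between the libraries.

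Each fibre type was then compared between the libraries. In IIb nuclei 6 members had at least 200 UMIs, of which 1 (Per3) was at least 2-fold lower and 0 were higher, beside 2.19% and 2.87% of all genes. In IIx nuclei 7 members did, of which 1 (Per3) was lower and 1 (Arntl) higher, beside 1.73% and 4.32%. In IIa nuclei 3 members did, with 0 in either direction, beside 1.07% lower and 3.31% higher. Over all 10 members without that minimum, 6 (Dbp, Tef, Ciart, Per3, Nr1d1 and Nr1d2) were below the median in all 3 fibre types and 2 (Arntl and Clock) were above it in all 3. The share of all genes with such agreement was not computed, so these counts alone do not set the members apart. For Nr1d1 the interval held 0 in each fibre type. Its ratio was -0.49 (-1.19 to 0.17) in IIb, -0.02 (-0.40 to 0.35) in IIx and -0.48 (-1.06 to 0.10) in IIa.

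Dbp stood at 11.6 CPM (29 UMIs), 30.2 CPM (137 UMIs) and 27.8 CPM (24 UMIs) in IIb, IIx and IIa nuclei labelled WT, and at 1.73 CPM (3 UMIs), 5.45 CPM (22 UMIs) and 10.8 CPM (18 UMIs) in those labelled KO. It was lower in every fibre type of the KO-labelled library, and its relative ratios were -2.62 (-4.98 to -0.93) in IIb, -2.31 (-3.04 to -1.66) in IIx and -1.25 (-2.22 to -0.31) in IIa. Tef was lower by nearly the same amount in each, at -0.81, -0.85 and -0.78. Per3 followed with -1.24, -1.31 and -1.07, and Ciart with -3.15 (42 and 3 UMIs), -1.26 and -1.70.

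Arntl and Per1 differed in size by fibre type. Arntl stood at 72.9 CPM (182 UMIs), 27.3 CPM (124 UMIs) and 34.7 CPM (30 UMIs) in IIb, IIx and IIa nuclei labelled WT, and at 86.7 CPM (150 UMIs), 66.4 CPM (268 UMIs) and 82.0 CPM (137 UMIs) in those labelled KO. The IIb level was thus well above those of IIx and IIa in the WT-labelled library, whereas the levels lay closer together in the KO-labelled library. Its relative ratio between the libraries was 0.38 (0.05 to 0.70) in IIb, 1.44 (1.12 to 1.76) in IIx and 1.36 (0.78 to 1.98) in IIa. The ratio in IIx was larger than in IIb by 1.06 (0.61 to 1.51), and that in IIa by 0.98 (0.31 to 1.68). With nuclei thinned to 1000 UMIs the ratios were 0.72 in IIb, 1.00 in IIx and 2.65 in IIa, so that IIx and IIb lay closer together. The thinned IIa value rests on few UMIs, as Arntl was then seen in 3 of 231 IIa nuclei labelled WT. Per1 stood at 111, 92.7 and 54.4 CPM in IIb, IIx and IIa nuclei labelled WT and at 57.8, 78.1 and 70.6 CPM in those labelled KO. Its relative ratio was -0.81 (-1.16 to -0.48) in IIb, -0.09 (-0.31 to 0.12) in IIx and 0.49 (-0.0047 to 1.01) in IIa, so it was lower in the IIb nuclei labelled KO. The ratio was larger in IIa than in IIb by 1.31 (0.69 to 1.93), and larger in IIx than in IIb by 0.72 (0.32 to 1.13). Ciart was the remaining member for which such an interval excluded 0, with IIx above IIb by 1.89 (0.08 to 4.31), and it rests on 3 UMIs in IIb nuclei labelled KO.

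**Figure D3:**
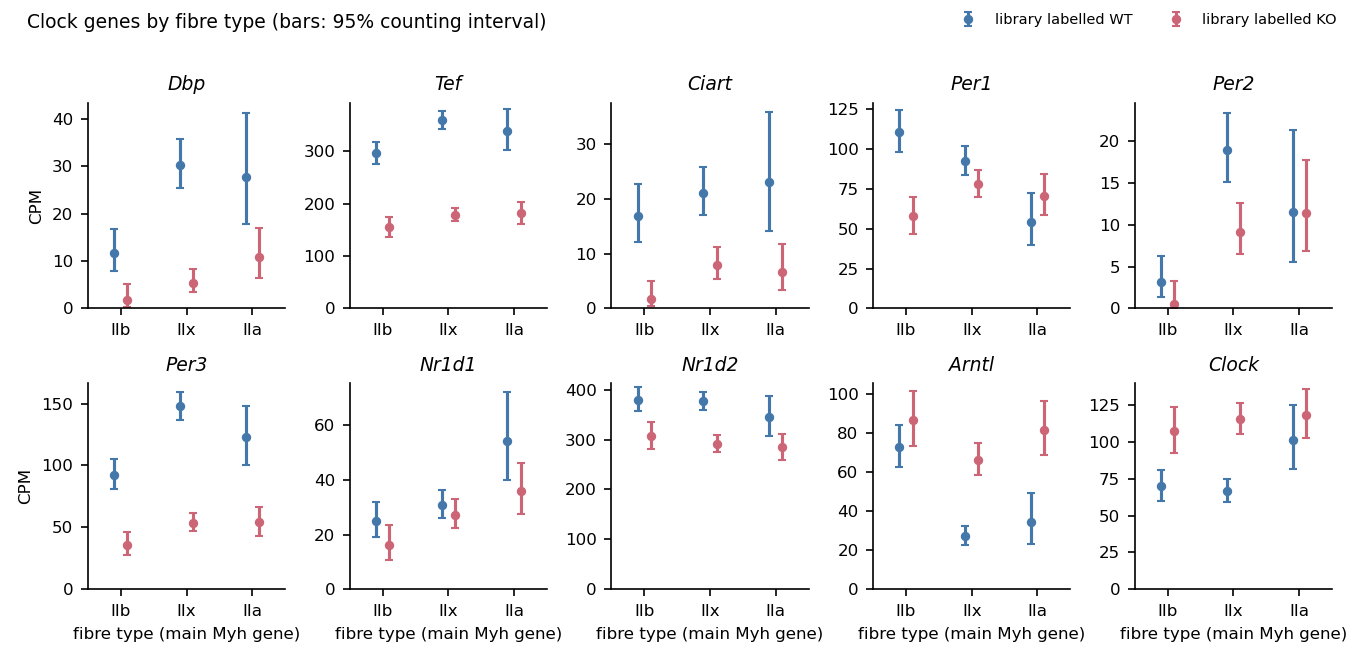
Level of each clock gene in CPM (from 0, with its own scale per panel) in nuclei of fibre types IIb, IIx and IIa of the libraries labelled WT and KO, with 95% counting intervals. Arntl in the WT-labelled library is 72.9 CPM in IIb against 27.3 in IIx and 34.7 in IIa, and Tef lies lower in the KO-labelled library in all 3.

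Within a library the members were ordered differently over the fibre types. In the WT-labelled library, 7 members had at least 200 UMIs in IIx and IIb nuclei together, and 1 (Arntl) was at least 2-fold lower in IIx and 0 higher, beside 3.7% and 7.8% of all genes. For IIa over IIb 6 members did, with 1 (Arntl) lower and 0 higher, beside 8.96% and 9.5%. In the KO-labelled library, 6 and 5 members did for IIx and IIa over IIb, with 0 past 2-fold, beside 1.95% lower and 8.49% higher for IIx and 6.49% lower and 11.5% higher for IIa. The number of members past 2-fold is thus small in both libraries.

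Arntl in the WT-labelled library was lower in IIx than in IIb by a relative ratio of -1.40 (-1.75 to -1.07), and lower in IIa by -1.01 (-1.62 to -0.44). With nuclei thinned to 1000 UMIs these were -0.71 and -2.20, so that the IIx ratio was no longer past 2-fold. The thinned IIa ratio rests on 3 of 231 IIa nuclei with an Arntl UMI. IIx and IIa did not differ beyond counting error (0.35, -0.28 to 0.93). In the KO-labelled library the same ratios were -0.34 (-0.63 to -0.04) and -0.04 (-0.38 to 0.31). Dbp ran the other way, with 1.39 (0.80 to 2.02) for IIx and 1.32 (0.48 to 2.15) for IIa over IIb in the WT-labelled library. In the KO-labelled library it was 1.70 (-0.03 to 4.09) and 2.68 (0.90 to 5.08), from 3 UMIs in IIb. Per2 was lowest in IIb in both libraries, at 3.21, 18.9 and 11.6 CPM in IIb, IIx and IIa nuclei labelled WT and 0.578, 9.17 and 11.4 CPM in those labelled KO, on 8 UMIs and 1 UMI in IIb.

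Nr1d1 was higher in IIa than in IIb by the same relative ratio in each library, 1.19 (0.62 to 1.77) labelled WT and 1.19 (0.52 to 1.90) labelled KO. Per3 was higher in IIx than in IIb in both, by 0.69 (0.47 to 0.91) and 0.63 (0.22 to 1.07), and Tef by 0.29 (0.17 to 0.42) and 0.25 (0.05 to 0.46). Nr1d2 did not separate the fibre types beyond counting error, with IIx over IIb at -0.00078 (-0.12 to 0.12) and -0.03 (-0.17 to 0.13). Per1 labelled WT was lower in IIx and IIa than in IIb, by -0.25 (-0.47 to -0.02) and -0.97 (-1.44 to -0.52), whereas labelled KO it was 0.48 (0.15 to 0.82) and 0.33 (-0.06 to 0.73). Ciart did not separate the fibre types beyond counting error in WT-labelled nuclei, at 0.34 (-0.20 to 0.90) and 0.52 (-0.32 to 1.32), and had 3 UMIs in IIb nuclei labelled KO. Clock was higher in IIa than in IIb nuclei labelled WT, by 0.60 (0.22 to 0.98), and not beyond counting error in those labelled KO (0.18, -0.11 to 0.48).

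The same comparison was made in the other cells of the muscle, where no member counted was past 2-fold. In the named non-muscle classes together, 8 members had at least 100 UMIs, and 0 were at least 2-fold lower or higher relative to the median of -0.05, beside 0.584% and 0.631% of 6340 genes. The interval of 1 of the 8, Arntl, excluded the median, beside 26.2% of all genes. These nuclei were not free of muscle RNA, as their summed level of the 10 myonuclear markers was 3493 CPM labelled WT and 5256 CPM labelled KO, or 3.59% and 4.63% of the 97418 and 113609 CPM in myonuclei. By class it ran from 1333 to 10624 CPM labelled WT and from 1892 to 10241 CPM labelled KO. In the same proportion, muscle RNA would bring 12.2 and 8.36 CPM of Tef, against measured 72.9 and 82.4 CPM.

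Arntl stood at 128 CPM (114 to 143, 317 UMIs) in non-muscle nuclei labelled WT and 95.5 CPM (81.6 to 111, 167 UMIs) in those labelled KO, the opposite direction to myonuclei. Its relative ratio was -0.37 (-0.64 to -0.09). Clock was at 199 CPM (182 to 217) and 184 CPM (164 to 205), a relative ratio of -0.06 (-0.27 to 0.14). Per3 was at 29.8 and 30.3 CPM, a relative ratio of 0.08 (-0.46 to 0.61), and Tef at 0.23 (-0.10 to 0.55). Dbp, with 10 and 15 UMIs, had a ratio of 1.14 with an interval on both sides of 0 (-0.11 to 2.46). The library difference in myonuclei, less that in non-muscle nuclei, was -3.02 (-4.41 to -1.67) for Dbp, -1.21 (-1.76 to -0.65) for Per3, -0.99 (-1.33 to -0.66) for Tef and -0.37 (-0.60 to -0.14) for Nr1d2. It was 1.31 (0.98 to 1.65) for Arntl and 0.84 (0.59 to 1.09) for Clock. For Ciart, Per1, Per2 and Nr1d1 the interval held 0, and for Ciart it ran from -3.45 to 1.51 on 9 non-muscle UMIs, so that a difference of that size was not detectable at this depth.

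**Figure D4:**
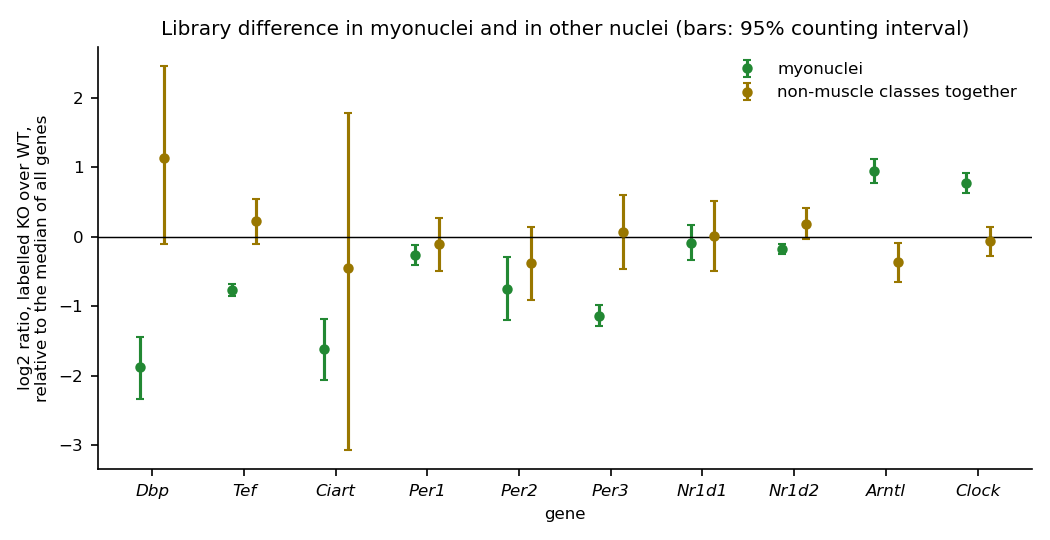
Relative log2 ratio of the KO-labelled library over the WT-labelled one for each clock gene, in myonuclei and in the non-muscle classes together, with 95% counting intervals. Arntl is above 0 in myonuclei (0.95) and below it in non-muscle nuclei (-0.37), and Tef and Per3 are below 0 in myonuclei while their non-muscle intervals hold 0.

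By level in the WT-labelled library, Arntl, Clock and Per2 were higher outside muscle, and Dbp, Ciart, Tef, Per1, Per3 and Nr1d2 higher inside it. In the WT-labelled library, Arntl was 44.5 CPM in myonuclei and 128 CPM in non-muscle nuclei, Clock 73.2 and 199 CPM, and Per2 12.9 and 37.1 CPM. Dbp was 22.8 and 4.03 CPM, Ciart 20.3 and 2.42 CPM, Tef 339 and 72.9 CPM and Per3 125 and 29.8 CPM. Per1 was 97.4 and 61.3 CPM and Nr1d2 377 and 159 CPM. Nr1d1 did not differ beyond counting error, at 30.01 CPM (26.5 to 33.8) and 33.5 CPM (26.6 to 41.5). In the KO-labelled library, Dbp was not higher in myonuclei, at 5.59 CPM (4.20 to 7.30) against 8.58 CPM (4.80 to 14.2). The intervals there also overlapped for Arntl, at 77.5 CPM (72.0 to 83.2) against 95.5 CPM (81.6 to 111). They overlapped for Ciart as well, at 6.01 CPM (4.56 to 7.76) against 1.72 CPM (0.35 to 5.02). Clock, Per2, Tef, Per1, Per3 and Nr1d2 kept their order with intervals apart.

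Among the non-muscle classes, Arntl in the WT-labelled library was highest in FAP-like nuclei, at 171 CPM (147 to 197), and in tenocyte-like nuclei, the cells of tendon, at 160 CPM (105 to 235), which did not differ beyond counting error. Endothelial-like nuclei stood at 105 CPM (75.0 to 142), pericyte or smooth muscle-like nuclei at 84.6 CPM (57.5 to 120), and MuSC-like nuclei, the muscle stem cells, at 61.4 CPM (33.6 to 103). Under the KO label FAP-like nuclei had 107 CPM (83.9 to 134), a relative ratio of -0.60 (-1.01 to -0.21). In MuSC-like nuclei the ratio was 1.23 (0.20 to 2.31), on 14 and 22 UMIs, and their summed myonuclear markers, at 10624 and 10241 CPM, were the highest of the non-muscle classes. The part of muscle RNA in that value was not tested. Among these non-muscle classes, Per2 in the WT-labelled library was highest in pericyte or smooth muscle-like nuclei, at 71.0 CPM (46.4 to 104), and in tenocyte-like nuclei, at 61.6 CPM (29.6 to 113), against 30.5 CPM (20.97 to 42.8) in FAP-like nuclei. Nr1d2 was at 51.4 CPM (23.5 to 97.6) in macrophage-like nuclei and between 149 and 210 CPM in every other non-muscle class.

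Other genes of the clock were taken from a list of 22, of which 17 had at least 200 UMIs in myonuclei. Of these 3 were at least 2-fold lower relative to the median and 0 higher, against the same background shares as for the members, and their median relative ratio was -0.42. The intervals of 9 lay below the median and those of 6 above it. Intervals that excluded the median in either direction held for 53.9% of all genes, so these counts alone do not set the list apart. Coq10b, which makes a binding protein of coenzyme Q and follows the clock, stood at 132 CPM labelled WT and 34.4 CPM labelled KO, a relative ratio of -1.80 (-1.98 to -1.62). Nfil3, the D-box repressor, had 19.6 and 7.56 CPM and a ratio of -1.23 (-1.64 to -0.83). Noct, a clock-driven phosphatase, had 70.3 and 31.4 CPM and a ratio of -1.02 (-1.22 to -0.82).

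The cryptochromes, partners of the period proteins, were lower by less, with Cry1 at 41.7 and 26.4 CPM (-0.51, -0.75 to -0.28) and Cry2 at 70.2 and 39.7 CPM (-0.68, -0.86 to -0.49). Bhlhe40 and Bhlhe41, paired E-box repressors, differed in direction, at -0.64 (-0.86 to -0.42) and 0.66 (0.42 to 0.91). Rora, which switches on Arntl, stood at 1243 and 1199 CPM, near the median (0.09, 0.06 to 0.13). Npas2, a relative of Clock, was at 0.42 (0.12 to 0.73) in myonuclei and -0.33 (-0.56 to -0.10) in non-muscle nuclei. It was also higher in IIa than in IIb nuclei in both libraries, by 3.40 (2.45 to 4.46) and 2.55 (1.72 to 3.49). These ratios rest on 42 against 12 UMIs labelled WT and 77 against 14 labelled KO, under the minimum number of UMIs for the counts above. Bhlhe40 likewise was higher in IIa, by 1.64 (1.11 to 2.18) and 1.26 (0.60 to 1.96). It had 62 against 60 UMIs labelled WT and 63 against 28 labelled KO, also under that minimum.

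Over 20 points, each a class or fibre type in 1 library with at least 50 nuclei, the genes whose log2(CPM + 10) followed Dbp most closely were Snhg14 (r = 0.80), Wnt5b (0.79), Zfp46 (0.78) and Mtus1 (0.77), among 8556 genes. For Arntl they were Morf4l1 (0.81), Fndc3b (0.77), Cdc16 (0.74), Acadsb (0.72) and Tram2 (0.72). Among the members, Tef and Nr1d2 ran most alike (r = 0.92), and Per3 and Clock most nearly opposed (-0.76). Points from 1 library share its mice and depth, so these values are descriptions with no test.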

How the data were processed

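Nuclei of pooled TA muscles were sorted by flow cytometry on 7-AAD, a DNA stain. The labels describe a 10x Multiome preparation and the study's methods a Chromium 3′ kit, so which was used is not settled. The authors made the deposited counts, whole UMIs per gene and barcode, with Cell Ranger 7.0.0 on mm10, and used Seurat 5.0.3, per the submitters' processing notes. No normalization had been applied to these values.

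Nuclei with 200 to 5000 genes and at most 5% mitochondrial UMIs were kept. Doublets were the highest Scrublet scores (scanpy 1.11.5) at 0.8% per 1000 barcodes, 115 and 134 nuclei, because the automatic threshold marked 32 and 2. The libraries shared 6 barcodes, none with the same counts. Clusters came from Seurat 5.3.0 (R 4.3.3; anchors between the libraries by reciprocal principal components, 2000 variable genes, 30 components, resolution 0.5). The 398 genes that were clock genes or differed 2-fold between the libraries in a first pass were left out of them. A cluster was named when at least 3 of a type's markers were detected and 1 was among its 10 leading genes, or as myonuclear at a summed marker level of 30000 CPM. This naming rule was set after the clusters were seen, and 2 clusters stayed unnamed.

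UMIs were summed per library and class. Levels have exact Poisson intervals, ratios exact intervals conditional on the total, and shares Clopper-Pearson intervals. All are 95% and cover counting error only, and no p-value was computed. Counts past 2-fold use genes with at least 200 UMIs in both libraries together (100 for non-muscle nuclei) and are relative to their median. The members and gene lists were chosen with earlier results of these data known. The members are described in every comparison. Of the other clock genes, those named are the ones past 2-fold and a fixed set (Cry1, Cry2, Npas2, Rora, Nfil3, Hlf, Bhlhe40 and Bhlhe41). The genes most like Dbp and Arntl were ranked by correlation over classes. Some genes these rules select are not reported here. The code was tested on simulated counts. TMM scaling used edgeR 4.0.16.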

Additional observations from a re-analysis of the deposited data

Results flagged for a closer look

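Arntl stood out because its library difference went in opposite directions in muscle and in the other cells. Relative to the median of all genes, its log2 ratio of the KO-labelled over the WT-labelled library was 0.95 in myonuclei and -0.37 in the non-muscle classes together, and both intervals excluded 0. The ratios differed by 1.31 (0.98 to 1.65). With 1 library per genotype this interval covers counting error only, and the difference was not tested over mice. The single non-muscle classes did not all go the same way. FAP-like nuclei were at -0.60 (-1.01 to -0.21). Endothelial-like (-0.43) and pericyte or smooth muscle-like nuclei (-0.64) were also below 0, with intervals that held 0. MuSC-like nuclei were at 1.23 (0.20 to 2.31) and macrophage-like nuclei at 0.86 (-0.38 to 2.15).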

How the results depend on the processing

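No paired analysis was possible because there was 1 library per genotype and its number is only a name. Of 561 values of single members under the alternatives, 545 lay within the interval of the reported value, 16 lay outside it, and 0 of those at least 2-fold from the median changed sign. In myonuclei the number of members at least 2-fold higher went from 0 to 1 after thinning to 1000 UMIs, where Arntl reached 1.01. Keeping nuclei of every class brought Dbp to -1.44 and Arntl to 0.54. Members at least 2-fold lower in IIx than in IIb nuclei of the WT-labelled library went from 1 to 0 after thinning. For IIa, 1 became 0 without doublet removal, with at most 1% mitochondrial UMIs, and with a main Myh gene of at least 3 UMIs and 80%, and it became 2 after thinning and for the mean over nuclei. Arntl, at -1.01, lay close to the limit, and the cause was not tested. Its ratio there ran from -2.20 to -0.91 over these settings. The -2.20 came from thinning, where Arntl was seen in 3 of 231 IIa nuclei labelled WT. In IIa nuclei Per2 went from 0.09 to -1.25 after thinning. TMM and median-of-ratios scaling each put the shift between the libraries in myonuclei at -0.12, beside the median of -0.15, and gave the same counts. Depth limits Ciart and Dbp most, which have 6 and 10 UMIs in non-muscle nuclei labelled WT and 3 and 15 in those labelled KO.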
